A study of Mus musculus with 14 samples.

Results

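Vehicle-treated TALLYHO liver was described by itself, from the 7 libraries labelled as water among the 14 libraries of the series. The 7 mice (named G1, G4, G6, G9, G10, G11 and G13 after their libraries) were male TALLYHO/JnG mice, 8 to 12 weeks old by the study's methods, and none of them received indole. TALLYHO is an inbred strain in which many loci together give a type 2 diabetes-like state with high blood glucose, insulin resistance and obesity. Water was given by oral gavage at 2 doses a day for 7 days. The glucose and insulin tolerance tests of the study followed in the same mice, with 2 further doses between them. By the study's protocol, the right liver lobe was taken a day after the second of these tests. The study notes that diabetes progresses at different speeds in mice of this strain, and no measure of that progress was given for the single mice here. No lean or non-diabetic strain is among the samples, so the values below are levels in a diabetic-model liver and not changes from a healthy one.

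Liver RNA comes mostly from hepatocytes, large cells that make most plasma proteins, clear foreign compounds, and store and release glucose and fat. In mice many hepatocyte genes differ between the sexes because growth hormone is released in pulses in males and more evenly in females, and others follow the time of day, the last meal, or signals of inflammation such as interleukin 6 and interferons. Transcripts under such control are known to differ between animals of one strain, whereas those of the basic machinery of the cell usually do not.

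Reads counted on genes numbered 15390922 to 21060376 per liver (median 18117524), on 16587 to 17551 genes. Levels are counts scaled to a common library size (CPM) after TMM normalisation over the 7 libraries, and CPM per kilobase divides them by the deposited gene length. The coefficient of variation between livers (BCV, the spread left after counting error is removed) was estimated for each gene. Of the hepatocyte markers, 14 of 14 in the table were above 1 CPM and summed to 109286±9918 CPM (SD, *n*=7). No marker of T and NK cells (0 of 15) or of skeletal muscle (0 of 10) reached a mean of 1 CPM. Markers of monocytes and neutrophils summed to at most 12.5 CPM, and those of B and plasma cells to at most 6.11 CPM. *Cela1* at 11.6±1.13 CPM (SD, *n*=7) was the single marker of exocrine pancreas above 1 CPM. Of the kidney and gut markers 1 of 10 was above 1 CPM, and the list summed to 42.8 to 65.1 CPM. Of the adipocyte and mammary fat markers 3 of 9 were, with a sum of 2411 to 4201 CPM. *Car3* was the most abundant of them, and 4 of the 9 had 0 reads in all 7 livers. Which cells these reads came from was not tested. *Ddx3y*, a gene of the Y chromosome, lay between 44.9 and 55.7 CPM in all 7 mice, and *Xist* had at most 1 read, so all 7 matched the label of male. These sex-linked genes were looked up after the other values had been seen.

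A small set of secreted proteins dominated the RNA. The albumin gene *Alb* (ENSMUSG00000029368, chromosome 5, 90460897 to 90476602, GRCm38) was the most abundant, with 56167 CPM in mouse G1, 57639 in G4, 65104 in G6, 69567 in G9, 71827 in G10, 63713 in G11, and 72126 in G13. Its level of 65163±6479.8 CPM (SD, *n*=7) corresponded to 6.501±0.438% of all reads. Livers G1 and G4 held the lowest levels and G10 and G13 the highest, within a 1.28-fold range. The 10 most abundant genes took 18.6±0.336% of the reads and the 100 most abundant 45.3±0.933%. Ranked by mean level, 145 genes held 50% of the reads and 3080 genes held 90%, out of 11718 genes with a mean of at least 1 CPM.

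After *Alb* came *Apoe*, which carries lipid in plasma, at 24563±2564 CPM (SD, *n*=7), the mitochondrial cytochrome oxidase subunit *mt-Co1* at 23215±1625 CPM (SD, *n*=7) and the iron carrier transferrin (*Trf*) at 18374±1219 CPM (SD, *n*=7). *Cyp3a11*, a cytochrome P450 that oxidises many drugs, and *C3*, the central complement protein, followed at 11480.1±1992 CPM (SD, *n*=7) and 10448±1005 CPM (SD, *n*=7). Apart from a gene of ribosomal RNA, described further on, the other genes of the first 20 included enzymes of methyl group metabolism (*Bhmt*, *Mat1a*), the urea cycle enzymes *Cps1* and *Ass1*, the plasma proteins *Selenop*, *Apoa2*, *Ahsg* and *Gc*, the antiproteases *Serpina1b* and *Serpina3k*, and 2 further mitochondrial transcripts. Most of them were alike between livers. *Selenop*, which carries selenium in plasma, ranged from 6947 CPM in mouse G9 to 7888 CPM in mouse G6, a BCV of 4.58%, and *Gc*, the vitamin D binding protein, had a BCV of 6.57%. *Serpina3k* and *Bhmt* were the protein-coding exceptions among these 20. *Serpina3k* ranged from 3400.2 CPM in mouse G4 to 8826 CPM in mouse G10 (BCV 34.9%), with G10 and G13 at 8826 and 8521 CPM and G1 and G4 at 3904 and 3400.2 CPM. *Bhmt*, which remethylates homocysteine with betaine, ranged from 5101 CPM in mouse G13 to 10718 CPM in mouse G11 (BCV 22.9%).

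**Figure D1:**
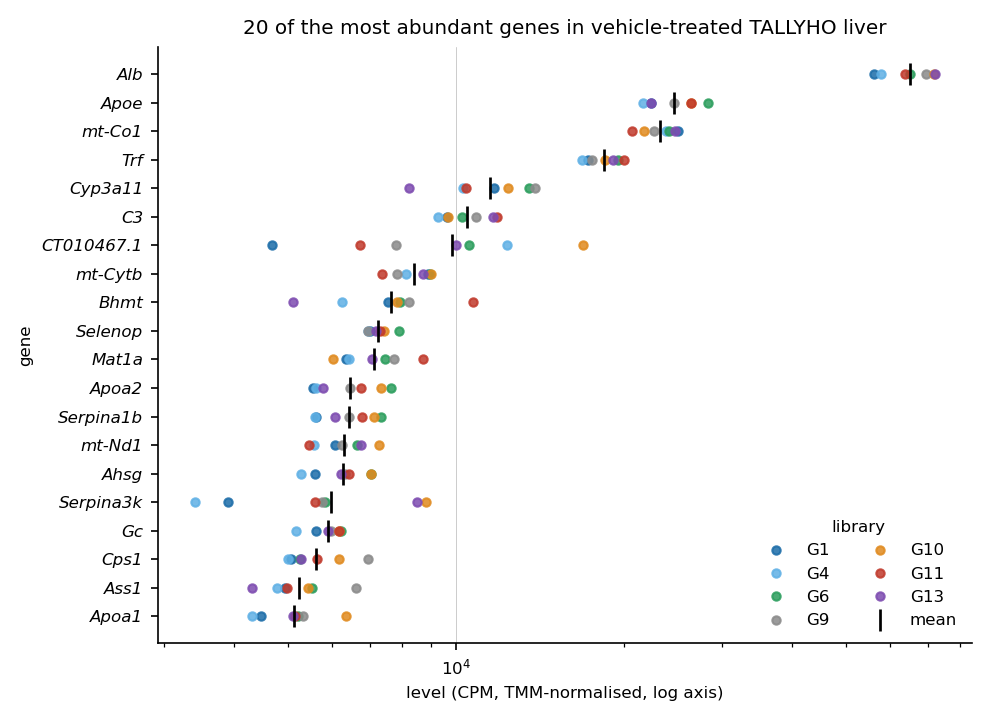
Levels of 20 of the genes with the highest mean in vehicle-treated liver, in TMM-normalised CPM on a log axis, with 1 point per library and a bar at the mean of the 7. *Alb* stands apart at 65163 CPM, and the points of most genes lie close together except those of CT010467.1, *Serpina3k* and *Bhmt*.

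Per kilobase the order changed, because short transcripts take fewer reads. *Alb* stayed first at 27824 CPM per kilobase. The apolipoprotein gene *Apoa2*, at rank 13 by CPM and with 537 bases, was at 12009 CPM per kilobase, above *Apoe* at 11489. *Apoc1* and *Apoa1*, also apolipoproteins, and the thyroid hormone carrier *Ttr* entered the first 15 at 5392, 4145 and 4080.2 CPM per kilobase. So did *Mup3*, a major urinary protein, at 3969 CPM per kilobase. *Cps1* and *Cyp3a11*, with 5555 and 5093 bases, dropped to 1012 and 2254 CPM per kilobase. Of the first 20 genes by CPM, 11 were among the first 20 per kilobase.

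Grouped by function, apolipoprotein genes took 5.61% of the normalised reads, genes of the urea cycle and amino acid breakdown 5.25%, and mitochondrial genome transcripts 5.21%. Complement and coagulation genes took 3.31%, cytochrome P450 genes of foreign compounds 3.07% and inducible acute-phase genes 2.87%. Genes of glucose handling and gluconeogenesis took 2.02%, with the gluconeogenic enzyme *Pck1* at 616 and the glucose-releasing phosphatase *G6pc* at 62.7 CPM per kilobase. Lipogenesis and fatty acid oxidation took similar shares, 1.18% and 1.11%, but differed in spread: the summed lipogenesis genes had an SD of 3556 CPM and those of oxidation 484 CPM between livers (*n*=7). A single lipogenesis gene, *Scd1*, had an SD of 2506 CPM.

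By gene biotype, protein-coding genes held 97.5±0.412% of the reads (SD, *n*=7), with 10831 genes at a mean of at least 1 CPM out of 21936. The next share, 0.979±0.383%, belonged to a single gene of biotype rRNA, CT010467.1, which is related to 18S ribosomal RNA. Its level was 4679 CPM in mouse G1, 12333 in G4, 10539.8 in G6, 7790.5 in G9, 16892 in G10, 6713 in G11, and 10002 in G13. Liver G10 was highest and G1 lowest, a 3.61-fold range, and ribosomal RNA is largely removed when poly(A) RNA is selected. The 2 mitochondrial ribosomal RNAs held 0.0937±0.0163%. Of the windows of 100 bases along CT010467.1, 46.9% were found in another annotated gene.

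Pseudogenes were counted at low levels but in numbers. Processed pseudogenes, which are copies of spliced messages put back into the genome, held 0.8003±0.0344% of the reads over 444 genes above 1 CPM. The highest were *Gm5424* at 1314±174 CPM (SD, *n*=7), *Gm13394* at 456±49.3 CPM (SD, *n*=7) and *Gm15459* at 317±47.7 CPM (SD, *n*=7). All 3 repeat a working gene: 54.6% of the 100-base windows of *Gm5424* were also in *Ass1*, 82.4% of those of *Gm15459* were in other genes including *Hspa8*, and 88.95% of those of *Gm13394* were in *Gapdh*. Unprocessed pseudogenes held 0.07203±0.00821%, with *Gm10925*, all of whose windows were also in *mt-Atp6*, at 125±18.3 CPM (SD, *n*=7).

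Long noncoding RNAs were scarce in these poly(A) libraries. Long intergenic RNAs held 0.0983±0.0142% of the reads over 118 genes above 1 CPM, led by *2900097C17Rik* at 82.1±9.78 CPM (SD, *n*=7) and *AW112010* at 75.1±16.7 CPM (SD, *n*=7). Antisense RNAs held 0.1097±0.00996% over 122 genes, with *0610005C13Rik* at 165±17.9 CPM (SD, *n*=7) and *Hectd2os* at 153±32.1 CPM (SD, *n*=7). *Hectd2os* was lowest in liver G13, at 87.04 CPM against 145 to 186 CPM in the other 6. The miRNA biotype held 0.132±0.0376%, nearly all of it on *Gm23935*, a gene of 57 bases at 1314±426 CPM (SD, *n*=7). Divided by that length it was second, at 23053 CPM per kilobase. No other miRNA gene had a mean above 12.2 CPM (*Gm24270*), as is usual for libraries of polyadenylated RNA, in which mature miRNAs are not captured.

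Most genes were alike between the 7 livers. Among 8653 genes with a mean of at least 5 CPM, the median BCV was 10.6% (5th to 95th percentile 3.07% to 26.3%), and the median ratio of the highest to the lowest liver was 1.401-fold. In 7995 genes (92.4%) that ratio was under 2. It was at least 4-fold in 87 genes, which is 1.01% of the genes, and at least 10-fold in 29. These genes were chosen by size, as 1 group allows no test of a difference. At 5 CPM a liver had 72.9 to 105 reads, so the counting error was 9.76 to 11.7% of the level, small against a 4-fold range. The lowest liver of a gene could hold far fewer reads, as with 7 for *Mup18* in G6 and 0 for *Mup8* in G11. The exact size of the largest ranges is therefore uncertain. Just inside and just outside the 4-fold limit lay *Cyp2b10* at 4.03-fold and *Apol9a* at 3.98-fold.

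The genes above 50 CPM with the least spread were not those of a single pathway. *Tgoln1*, a protein of the trans-Golgi network, was at 135 CPM in mouse G1, 133 in G4, 135 in G6, 129.8 in G9, 131 in G10, 133 in G11, and 135 in G13, a 1.04-fold range. *Actr1b*, *Polr2m*, *Lmbrd1*, *Irak1*, *Anapc5*, *Mmadhc*, *Selenoi*, *Itfg1* and *Lactb* ranged over 1.06- to 1.11-fold. For all 10 the spread between livers was at or near the lower limit of the estimate, so no spread beyond counting error was detectable at this depth. The growth hormone receptor *Ghr*, looked up after its value was seen, ranged from 460.03 to 544 CPM (1.18-fold).

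**Figure D2:**
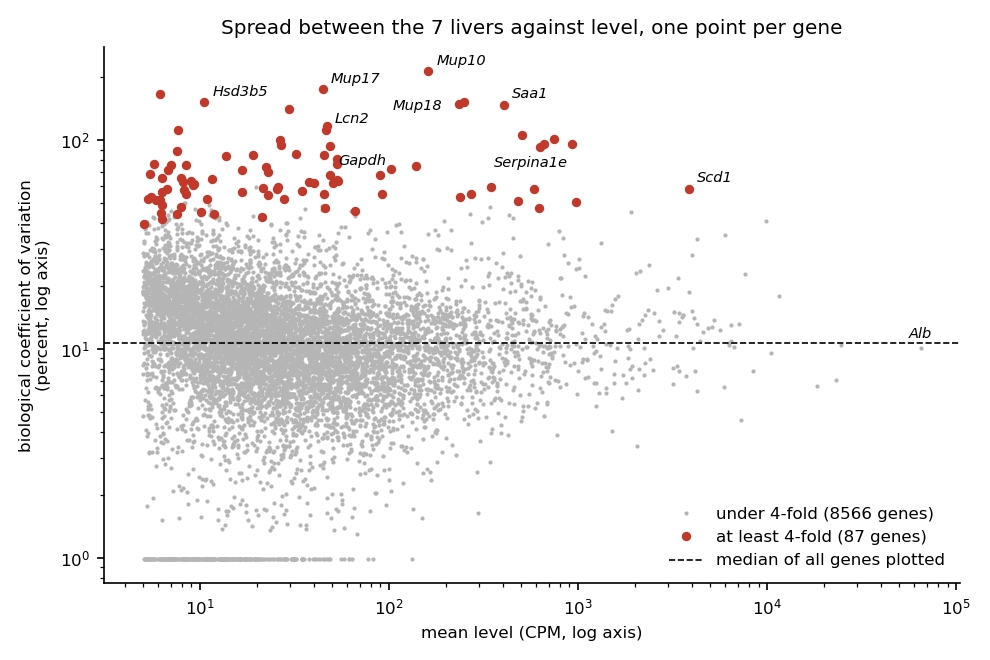
Biological coefficient of variation (percent, log axis) against mean level (CPM, log axis) for the 8653 genes with a mean of at least 5 CPM, with the 87 genes at least 4-fold apart in red and the median as a dashed line at 10.6%. *Alb* lies near the median, *Mup10* has the highest value at 213%, and the row of points at the bottom is the lower limit of the estimate.

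The gene lists differed widely in spread. Fatty acid oxidation and ketogenesis genes had the lowest median BCV of the lists with at least 5 members measured, 8.59% over 28 genes, with 0 past 4-fold. Bile acid genes (9.84%, 2 of 22 past 4-fold), proteasome genes (9.88%, 0 of 25) and complement and coagulation genes (10.01%, 0 of 37) lay just below the median of all genes. Hepatocyte markers had a median of 12.1% with 0 of 14 past 4-fold. At the other end, major urinary protein genes had a median BCV of 98.6% with 13 of 16 past 4-fold, female-biased liver genes one of 52.3% with 5 of 8, and male-biased liver genes one of 42.1% with 6 of 15, against 1.01% of all genes. Next came glucocorticoid targets and metallothioneins (36.7%, 3 of 12), Kupffer cell and macrophage markers (32.7%, 1 of 12), immediate early genes (29.8%, 2 of 12) and interferon response genes (27.3%, 5 of 25). The lists differ in size and in level, and some share members.

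**Figure D3:**
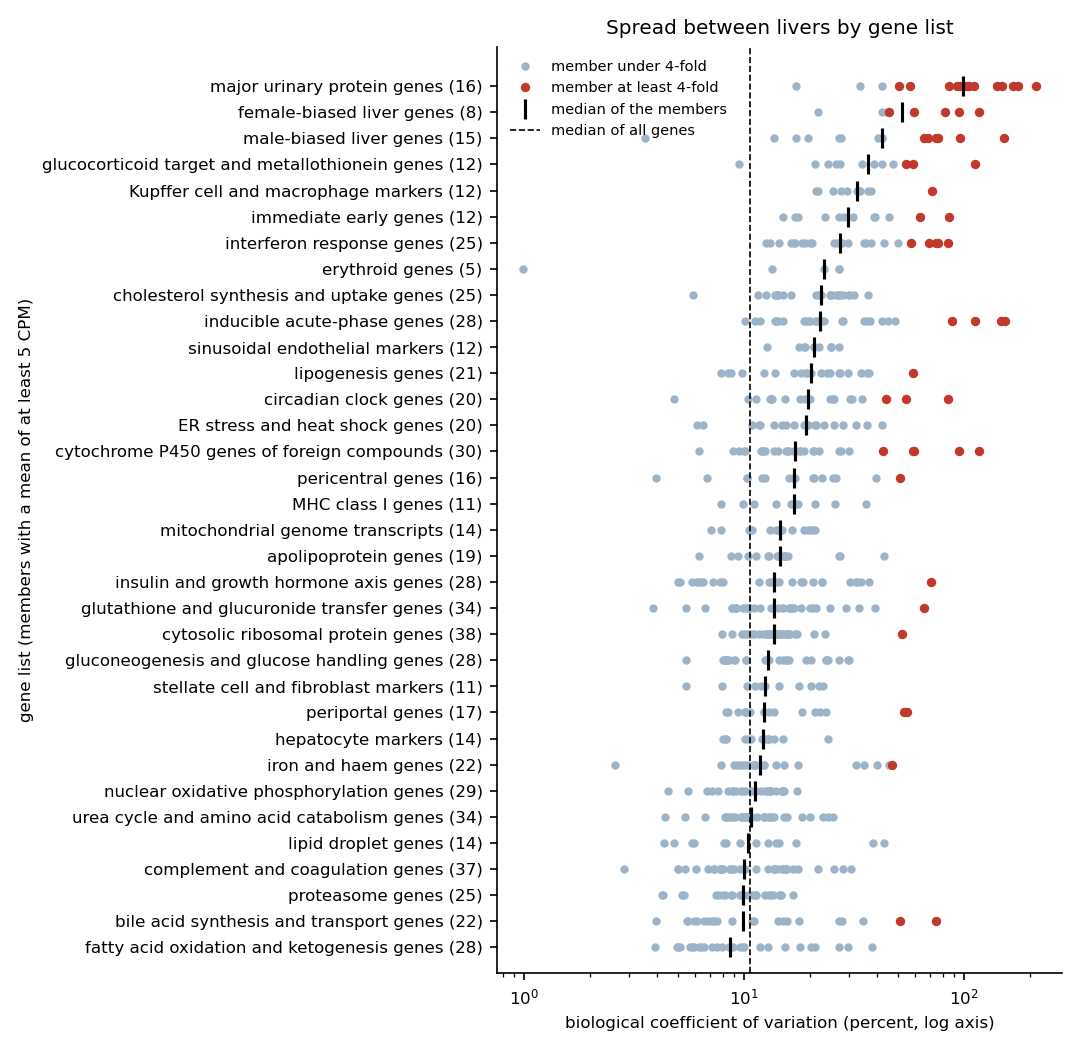
Biological coefficient of variation (percent, log axis) of each member of the gene lists with at least 5 members at a mean of 5 CPM or more, with the number of members in brackets. Bars mark list medians, from 8.59% for fatty acid oxidation to 98.6% for major urinary proteins, and red points mark members at least 4-fold apart.

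Major urinary proteins are small carriers of pheromones that hepatocytes secrete and the kidney passes into urine, and their genes lie in a cluster of near-identical copies on chromosome 4. Together the listed genes ranged from 3346 CPM in liver G11 to 13851 CPM in G13, a 4.14-fold range, with 7629.6 CPM in G1, 5766 in G4, 7775 in G6, 11768 in G9 and 13294 in G10. The most abundant, *Mup3*, was the steadier part of that sum, from 2288 CPM in mouse G11 to 6045 CPM in mouse G13 (2.64-fold). Single copies differed far more.

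*Mup10* (ENSMUSG00000078680, chromosome 4, 60578260 to 60582199) had the largest BCV of the genes measured. It was at 3.47 CPM in mouse G1, 2.16 in G4, 3.71 in G6, 3.8 in G9, 1099 in G10, 5.39 in G11, and 4.57 in G13. The level of G10 rested on 16025 reads and lay alone, and without that liver *Mup10* was not past 4-fold. *Mup17* (ENSMUSG00000096688, chromosome 4, 61591929 to 61595871) was at 0.984 CPM in mouse G1, 2.05 in G4, 2.23 in G6, 60.9 in G9, 7.41 in G10, 1.44 in G11, and 237 in G13. Livers G13 and G9 were high and the other 5 did not exceed 7.41 CPM. *Mup18* (ENSMUSG00000078674, chromosome 4, 61670177 to 61674136) had another form, at 277 CPM in mouse G1, 184 in G4, 0.472 in G6, 619 in G9, 4.87 in G10, 192 in G11, and 362 in G13. Livers G6 and G10 were near 0 and the other 5 were at 184 CPM or more, so its range was 1310.3-fold. The low end of that range rested on 7 reads in G6. *Mup19* was high in liver G10, at 149.97 CPM against 1.92 to 24.96 CPM in the others.

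*Mup7*, *Mup11*, *Mup12*, *Mup1* and *Mup15* shared another form, with liver G11 far below the rest. *Mup12* was at 12.3 CPM in G11 and at 428 to 1246 CPM in the other 6. *Mup7* was at 39.6 CPM in G11 and at 435 to 1907 CPM elsewhere. *Mup15* had 2 reads in G11, under the floor of 3 reads, and *Mup8* had 0. Over the 16 genes measured, 11 had their lowest level in G11, where 13.4% of all genes did. Without G11, 12 of these genes were past 4-fold.

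Counts of single *Mup* copies depend on where they differ, because only uniquely mapped reads were kept. Of the 14 *Mup* genes and pseudogenes past 4-fold, the share of 100-base windows that also occur in another gene ranged from 4.31% (*Mup21*) to 100% (*Mup19* and *Mup22*), with a median of 82.5%. It was 84.9% for *Mup10*, 59.04% for *Mup17* and 86.8% for *Mup18*. The copies that a TALLYHO mouse carries may also differ from those of the reference genome, and which copy a read came from was not tested. The 250 bases before the start of *Mup17* and of *Mup18* are shown because these copies were low in different sets of livers although the sequences before them are 94.8% identical (237 of 250 aligned positions, RefSeq on GRCm38.p6, minus strand, chr4:61595833-61596082 and chr4:61674095-61674344). Capitals mark bases that differ from the other sequence, or have no partner in it, in the alignment.
Mup17: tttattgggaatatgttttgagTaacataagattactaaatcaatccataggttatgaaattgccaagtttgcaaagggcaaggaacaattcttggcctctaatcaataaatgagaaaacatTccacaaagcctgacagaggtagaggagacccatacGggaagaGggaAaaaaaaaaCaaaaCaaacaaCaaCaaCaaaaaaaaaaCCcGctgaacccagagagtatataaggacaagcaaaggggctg
Mup18: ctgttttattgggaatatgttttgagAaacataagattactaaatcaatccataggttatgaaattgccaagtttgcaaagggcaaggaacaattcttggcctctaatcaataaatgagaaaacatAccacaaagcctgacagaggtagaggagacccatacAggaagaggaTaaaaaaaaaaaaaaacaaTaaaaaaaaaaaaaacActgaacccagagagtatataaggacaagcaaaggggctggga
The corresponding stretch of *Mup10* was 94.7% identical to that of *Mup17*.

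**Figure D4:**
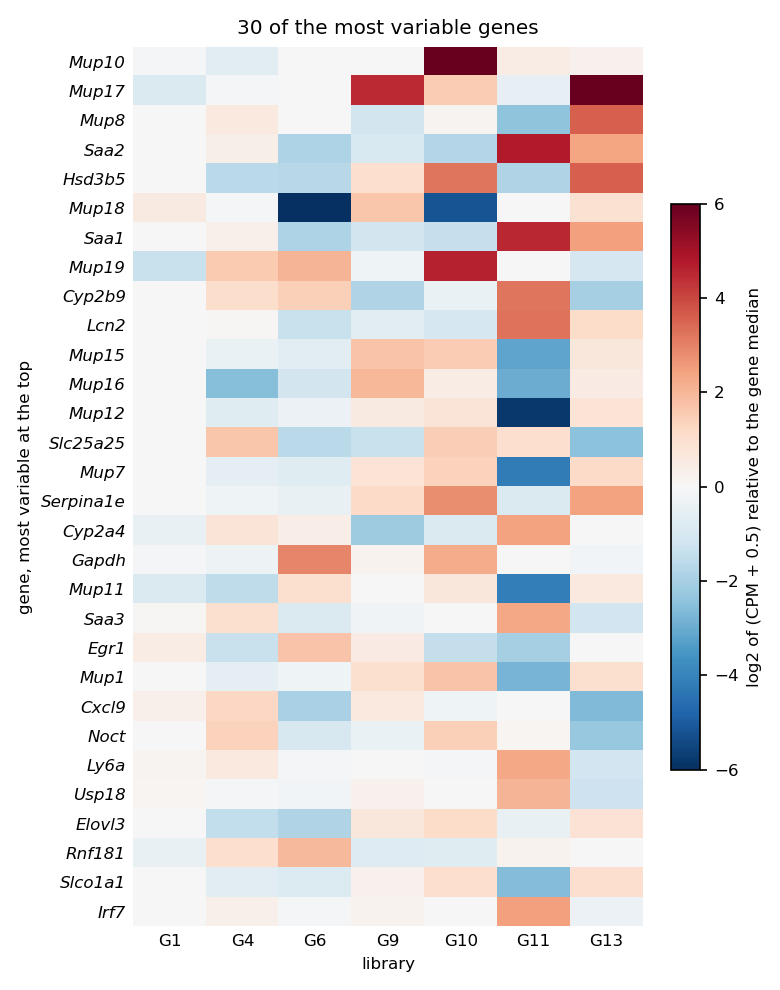
Among the genes with the largest biological coefficient of variation, 30 are shown as log2 of (CPM + 0.5) relative to the median of the 7 libraries, with red above and blue below it and colours that end at 6 in either direction. *Mup10* is red in G10 alone, *Mup18* is blue in G6 and G10, and G11 is red for *Saa1*, *Saa2* and *Lcn2* and blue for *Mup7* and *Mup12*.

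Genes that are higher in male than in female mouse liver differed widely between these male mice. Hydroxysteroid dehydrogenase *Hsd3b5*, found almost only in male liver, was at 2.59 CPM in mouse G1, 0.498 in G4, 0.472 in G6, 5.63 in G9, 28.2 in G10, 0.389 in G11, and 36.05 in G13. Livers G13 and G10 were high, and G4, G6 and G11 had 9, 7 and 7 reads. *Serpina1e*, an antiprotease of the male pattern, was at 259 CPM in mouse G1, 215 in G4, 188 in G6, 573 in G9, 1818 in G10, 141 in G11, and 1403 in G13. Again G10 and G13 stood above the rest and G11 was lowest. The uptake transporter *Slco1a1* ranged from 20.5 CPM in mouse G11 to 260.1 CPM in mouse G10 (12.7-fold), with G13 level with G10 at 259.98 CPM. *Elovl3*, a fatty acid elongase, ranged from 1.75 CPM in mouse G6 to 16.5 CPM in mouse G10, *Ugt2b38*, a glucuronide transferase, from 1.499 CPM in mouse G11 to 12.8 CPM in mouse G10, and *Selenbp2* from 19.3 CPM in mouse G4 to 141 CPM in mouse G10. Of the 15 male-biased genes measured, 11 were lowest in G11 and 9 were highest in G10, where 13.4% and 16.3% of all genes were. The list shares a member with that of the urinary proteins, and its own most abundant member *Cyp2d9* ranged only 1.68-fold.

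Among female-biased genes, several were highest in the livers where male-biased genes were low. *Cyp2b9*, a cytochrome P450 that male liver normally keeps low, was at 20.2 CPM in mouse G1, 42.1 in G4, 54.4 in G6, 5.48 in G9, 15.3 in G10, 188 in G11, and 4.62 in G13. Liver G11 was highest and G13 and G9 lowest. *Cyp2a4*, a steroid hydroxylase, ranged from 3.45 CPM in mouse G9 to 92.4 CPM in mouse G11 (26.8-fold). *Acot3* ranged from 27.1 CPM in mouse G10 to 119 CPM in mouse G6. *Cyp3a44* departed from this order, with its highest level in G9 (40.8 CPM) and its lowest in G4 (6.75 CPM). Summed over the list, female-biased genes were at 1014 CPM in G11, 872 in G6, 831 in G4, 507 in G10, 496 in G1, 421 in G9 and 376 in G13. The summed male-biased genes were at 2832 CPM in G11, 2928 in G4, 3597 in G1, 3604 in G6, 4557 in G9, 5589 in G13 and 6749.9 in G10. The 3 livers with the highest female-biased sum (G11, G6 and G4) and liver G1 had male-biased sums of 3604 CPM or less, and the other 3 had 4557 CPM or more.

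Of the regulators through which growth hormone acts on these genes, *Bcl6*, a repressor of female-biased genes that is itself higher in males, was the one member of the growth hormone and insulin list past 4-fold. It was at 20.8 CPM in mouse G1, 10.2 in G4, 23.3 in G6, 7.797 in G9, 8.85 in G10, 33.04 in G11, and 55.9 in G13. Livers G13 and G11 were highest, although they lay at opposite ends for the male-biased genes. *Cux2* and *Socs2*, looked up after these values had been seen, had means under 5 CPM. *Cux2*, a repressor that female liver expresses, ranged from 0.823 CPM in G10 to 6.81 CPM in G4. *Socs2*, a feedback inhibitor of growth hormone signalling, ranged from 1.098 CPM in G10 to 7.81 CPM in G13. *Igf1*, the growth factor that growth hormone induces in liver, was at 698±93.99 CPM (SD, *n*=7) with a 1.42-fold range.

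**Figure D5:**
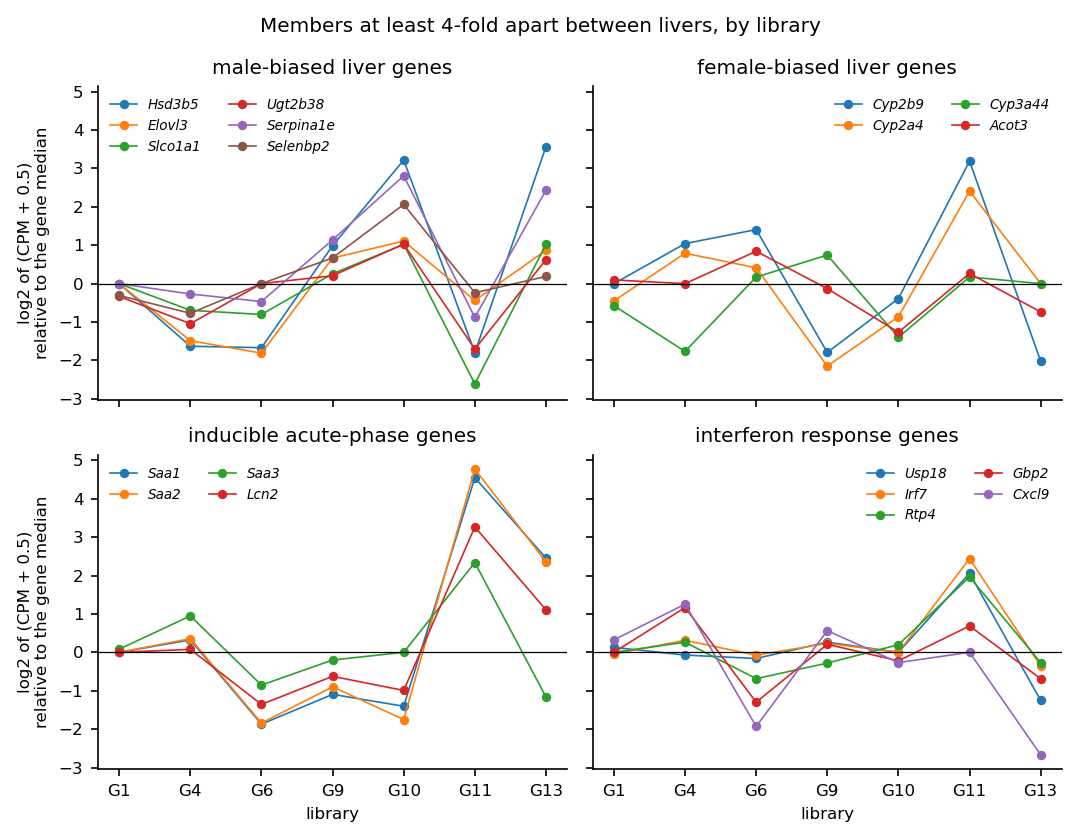
Members, as far as they are reported here, at least 4-fold apart between livers in 4 gene lists, as log2 of (CPM + 0.5) relative to the median of the 7 libraries. Lines only join the points of a gene. Male-biased genes are high in G10 and, except *Selenbp2*, in G13, *Cyp2b9* and *Cyp2a4* are high in G11, and the acute-phase genes and *Irf7*, *Usp18* and *Rtp4* are highest in G11.

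Acute-phase genes are switched on in hepatocytes by interleukin 6 and interleukin 1, and serum amyloid A is among the most inducible of them. *Saa1* (ENSMUSG00000074115, chromosome 7, 46740497 to 46742980) was at 87.6 CPM in mouse G1, 109.6 in G4, 23.6 in G6, 40.8 in G9, 32.8 in G10, 2056 in G11, and 483 in G13. Its neighbour *Saa2* was at 48.5 CPM in mouse G1, 62.2 in G4, 13.2 in G6, 25.8 in G9, 14.1 in G10, 1338 in G11, and 249.6 in G13. In both, G11 lay far above the next liver, G13, and G6, G9 and G10 were lowest. *Lcn2*, which binds bacterial iron carriers, followed the same order at 20.96 CPM in mouse G1, 22.1 in G4, 7.89 in G6, 13.4 in G9, 10.3 in G10, 206 in G11, and 45.7 in G13. *Saa3* also peaked in G11 (25.6 CPM) but was lowest in G13 (1.81 CPM). *Saa1*, *Saa2* and *Lcn2* stayed past 4-fold whichever liver was left out. Of the 28 acute-phase genes measured, 14 were highest in G11 and 6 in G13, and 11 were lowest in G1, where 11.5%, 14.1% and 14.7% of all genes were. The list summed to 21579 CPM in G1 and 38835 CPM in G11, with *Serpina3k*, the haem carrier *Hpx* and the fibrinogen chain *Fgb* as its most abundant members at 5974, 3998 and 3216 CPM.

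*Saa1* and *Saa2* lie head to head on chromosome 7 and are shown because they moved together. The 250 bases before each start, from RefSeq on GRCm38.p6, are chr7:46742981-46743230 on the minus strand and chr7:46751583-46751832 on the plus strand. They are 95.2% identical (238 of 250 aligned positions), and capitals mark the bases that differ or have no partner in the alignment.
Saa1: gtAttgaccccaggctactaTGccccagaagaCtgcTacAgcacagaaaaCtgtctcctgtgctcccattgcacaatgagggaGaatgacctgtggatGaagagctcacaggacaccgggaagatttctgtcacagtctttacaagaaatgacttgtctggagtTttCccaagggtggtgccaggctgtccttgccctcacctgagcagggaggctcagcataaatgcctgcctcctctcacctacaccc
Saa2: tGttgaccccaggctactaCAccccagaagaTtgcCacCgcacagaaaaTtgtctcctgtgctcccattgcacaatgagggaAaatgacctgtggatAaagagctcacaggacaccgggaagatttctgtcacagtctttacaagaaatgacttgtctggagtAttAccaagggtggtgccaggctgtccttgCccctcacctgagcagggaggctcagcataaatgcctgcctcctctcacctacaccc
Both hold TTGCACAA, a match to the C/EBP pattern TTGCNNAA, 182 and 183 bases before the start. Searched on both strands, that pattern was in 9.25% of 20974 stretches of the same length before genes. It was in 7.73% of the 6769 stretches of genes with a mean of at least 5 CPM. Of the 61 stretches of genes past 4-fold, 10 held it. The pattern TTCNNNGAA (STAT), in 6.83% of all such stretches, was not found in these windows. A match is a run of letters and not a measured binding site. Of the windows of the longest *Saa1* transcript, 9.57% were shared with *Saa2*. That transcript has 2446 bases, nearly the whole span of the gene, so the share in the spliced message was not measured. How far reads of the 2 genes could be told apart was not tested.

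Most interferon response genes were highest in the same liver. *Irf7*, a transcription factor that interferon induces and that widens the response, was at 12.9 CPM in mouse G1, 16.7 in G4, 12.6 in G6, 15.7 in G9, 13.3 in G10, 74.4 in G11, and 10.3 in G13. Liver G11 lay alone, and without it the range was not past 4-fold. *Usp18*, which damps interferon signalling, was at 18.2 CPM in G11 and 1.38 to 4.89 CPM in the others, and *Rtp4* at 16.6 CPM against 2.23 to 4.76 CPM. Of 25 members measured, 19 were highest in G11, where 11.5% of all genes were, and 10 of 11 MHC class I genes, which present peptides to T cells, were too. The chemokine *Cxcl9* and the GTPase *Gbp2*, which respond to interferon gamma, had another order. *Cxcl9* was at 22.8 CPM in mouse G1, 43.9 in G4, 4.38 in G6, 26.99 in G9, 14.96 in G10, 18.1 in G11, and 2.43 in G13, so that G4 was highest and G13 and G6 lowest. The most abundant interferon gene, *Iigp1*, ranged only 1.57-fold. Without G11, 2 members were past 4-fold in place of 5.

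Markers of other liver cells also differed between livers. In whole tissue, fewer cells of a type and less RNA per cell cannot be told apart. The 15 Kupffer cell and macrophage markers summed to 292 CPM in G1, 256 in G4, 179 in G6, 255 in G9, 137 in G10, 327 in G11 and 267 in G13. Of the 12 measured, 9 were lowest in G10, where 14.5% of all genes were, and *Clec4f*, a lectin that marks Kupffer cells, was at 21.9 CPM there and 31.5 to 50.3 CPM in the others. The scavenger receptor *Marco* was past 4-fold (5.42 CPM in mouse G10 to 47.97 CPM in mouse G11) and not without G11. Sinusoidal endothelial markers summed to 148 CPM in G11 and 203 to 266 CPM in 5 of the others, with 194 CPM in G13. In G11, 11 of the 12 measured had their lowest level, against 13.4% of all genes. *Dnase1l3*, an enzyme that these cells secrete, was at 46.3 CPM in mouse G1, 42.4 in G4, 44.7 in G6, 52.4 in G9, 35.1 in G10, 26.3 in G11, and 36.3 in G13. By their sums, G11 was highest for macrophage, interferon and acute-phase genes and lowest for endothelial and male-biased genes. Other livers came close for 2 of these lists. Of the 12 macrophage markers measured, 6 were highest in G11 and 5 in G1, and the acute-phase sum of G13 was 35955 CPM. The part that the cell makeup of the sample had in these ranks was not tested. Stellate cell markers had a median BCV of 12.5%, with *Dcn* at 141±8.07 CPM (SD, *n*=7).

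Genes that follow the clock, feeding or stress hormones formed a further group. *Per1*, a clock gene that glucocorticoids also induce, was at 21.4 CPM in mouse G1, 34.3 in G4, 24.7 in G6, 30.1 in G9, 27.1 in G10, 17.4 in G11, and 4.81 in G13. Liver G13 lay alone at the low end. *Noct*, a rhythmic gene, was at 10.7 CPM in mouse G1, 28.8 in G4, 5.26 in G6, 8.09 in G9, 29.98 in G10, 11.4 in G11, and 1.81 in G13. *Slc25a25*, a mitochondrial carrier of adenine nucleotides, was at 18.6 CPM in mouse G1, 59.8 in G4, 5.67 in G6, 7.16 in G9, 52.6 in G10, 37.8 in G11, and 2.95 in G13. For these last genes G4 and G10 were the highest livers and G13 was the lowest. The clock output gene *Ciart* also had its lowest level in G13 (4.19 CPM) and its highest in G4 (17.5 CPM). Of other clock genes, *Nr1d1*, a repressor of the clock, was at 102.1±21.3 CPM (SD, *n*=7) (1.82-fold) and *Dbp*, a clock output, at 199±29.9 CPM (SD, *n*=7) (1.52-fold). Of 20 clock genes measured, 12 were highest in G4, where 17.5% of all genes were. The times at which the livers were taken were not given.

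Glucocorticoid targets and metallothioneins were lowest in G13 for 8 of 12 genes and highest in G4 for 8, against 13.5% and 17.5% of all genes, and their sum was 1585 CPM in G13 against 2581 to 3582 CPM in the others. *Errfi1*, an inhibitor of the epidermal growth factor receptor, was at 619.6 CPM in mouse G1, 937 in G4, 557 in G6, 767 in G9, 754 in G10, 346 in G11, and 122 in G13. Liver G13 was again lowest. The metallothionein *Mt1*, which binds zinc and copper, was at 567 and 518 CPM in G4 and G1 and at 153 and 186 CPM in G13 and G11, and did not reach 4-fold (3.71-fold). *Tat*, the tyrosine-degrading enzyme and the most abundant member, was highest in G11 (1552 CPM against 779 to 939 CPM). Of the immediate early genes, *Egr1* was at 38.1 CPM in mouse G1, 10.9 in G4, 90.99 in G6, 39.8 in G9, 9.95 in G10, 6.66 in G11, and 27.9 in G13, highest in G6, whereas *Dusp1*, a phosphatase of MAP kinases, was highest in G4 (18.5 CPM) and lowest in G9 (2.57 CPM). Without G13, the clock list and the glucocorticoid list each kept 1 member past 4-fold.

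Among genes of fat and bile acid metabolism, *Scd1*, which makes monounsaturated fatty acids, was by far the most abundant gene past 4-fold. It was at 1595 CPM in mouse G1, 4829.8 in G4, 2031 in G6, 4246 in G9, 2827 in G10, 2457 in G11, and 8868 in G13. Liver G13 was highest and G1 lowest, and without G13 the range was under 4-fold. Lipogenesis genes were highest in G13 for 12 of 21 and lowest in G1 for 12, against 14.1% and 14.7% of all genes, and *Fasn*, the fatty acid synthase, ranged from 464 CPM in mouse G1 to 1233 CPM in mouse G13. Cholesterol synthesis genes instead were highest in G11 for 19 of 25, against 11.5% of all genes. *Hmgcs1*, which makes the precursor of mevalonate, was at 779 CPM in mouse G1, 552 in G4, 605 in G6, 677 in G9, 1103 in G10, 1316 in G11, and 495 in G13, with G11 and G10 highest. *Cyp7a1*, the rate-limiting enzyme of bile acid synthesis, was at 1088 CPM in G11, 199.6 CPM in G4 and 347 to 472 CPM in the other 5, and was not past 4-fold without either of the first.

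*Hamp*, which encodes the iron hormone hepcidin, ranged from 240.1 CPM in mouse G9 to 1143 CPM in mouse G11 and was not past 4-fold without either liver. *Rgs16*, a periportal regulator of G protein signalling, was at 74.2 and 107 CPM in G10 and G11 and at 233 to 349.5 CPM in the other 5, and *Mfsd2a*, a lipid transporter, ranged from 18.3 CPM in mouse G1 to 88.5 CPM in mouse G10. *Cyp2a22* was highest in G11 and G6 (48.2 and 43.4 CPM) and lowest in G9 (9.77 CPM), and *Cyp2b10*, a target of the receptor CAR, ranged from 8.09 CPM in mouse G13 to 32.6 CPM in mouse G11. Of the genes of gluconeogenesis, *Pck1* ranged from 1291 CPM in mouse G13 to 2710.2 CPM in mouse G6 (2.1-fold) and *G6pc* from 103 CPM in mouse G1 to 239.9 CPM in mouse G11 (2.32-fold).

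A few genes of basic upkeep were also past 4-fold. *Gapdh*, a glycolytic enzyme often used as a reference gene, was at 18.3 CPM in mouse G1, 15.9 in G4, 154 in G6, 22.2 in G9, 92.8 in G10, 19.4 in G11, and 17.2 in G13. Livers G6 and G10, the pair in which *Mup18* was lowest, were high, and the other 5 were between 15.9 and 22.2 CPM. *Gm13394*, the processed pseudogene that repeats its sequence, was at 381 to 520.4 CPM and varied 1.37-fold. Of its 181 windows, 161 were found in *Gapdh* transcripts, and 79 genes, *Gapdh* among them, held at least 1 of them. Whether reads from such windows had a unique position in the genome was not tested. *Mup22*, all of whose windows were also in other genes, still had a mean of 979 CPM. *Rpl37*, of the large ribosomal subunit, was at 17.1 CPM in mouse G1, 28.2 in G4, 7.96 in G6, 30.8 in G9, 50.8 in G10, 32.1 in G11, and 28.4 in G13, lowest in G6, while *Rpl37rt*, a transcribed copy of it, was at 162±28.7 CPM (SD, *n*=7) and highest in G6. It was the single cytosolic ribosomal protein gene past 4-fold of 38, and the list had a median BCV of 13.6%. *Rnf181* ranged from 2.57 CPM in mouse G9 to 20.2 CPM in mouse G6, and the pseudogene *Gm8893*, which shares 23.6% of its windows with *Serpina1* genes, from 37.9 CPM in mouse G10 to 204 CPM in mouse G9. The part of the counting rule in these ranges was not tested.

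The extremes were spread over all 7 livers but unevenly. Of the 87 genes past 4-fold, 22 were highest in G11, 19 in G4, 12 in G10, 12 in G13 and 6 to 8 in each of the others, and 21 were lowest in G11 and 18 in G13. G11 was highest in 25.3% of the 87 and lowest in 24.1%, against 11.5% and 13.4% of all genes with a mean of at least 5 CPM. Without G11, 23 of the 87 were no longer past 4-fold, the most for any of the 7 livers. When the second highest liver was divided by the second lowest, 23 genes were past 4-fold. The first principal component of log2 CPM held 28.6% of the variance and set G1 and G4 apart from G6 and G10, the second (21.9%) set G11 apart and the third (18.8%) set G13 apart. The nuclear RNA *Malat1*, picked from the first component after its values were seen, was at 57.7 and 40.01 CPM in G4 and G1 and at 9.28 to 21.7 CPM in the other 5, and *Neat1*, another nuclear RNA, at 13.2 and 11.4 CPM and 3.26 to 7.62 CPM. Cytosolic ribosomal protein genes summed to 7308 and 7362 CPM in G4 and G1 and to 9784 and 10019 CPM in G6 and G10. RNA quality scores of the single samples were not given, and their part in this axis was not tested.

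Of 12 pairs of genes that are known to share or oppose control, 1 was related across the 7 livers after adjustment. The pairs were chosen with earlier results of these data known, a choice that the adjustment does not cover. *Saa1* and *Lcn2* had a Pearson *r* of 0.988 on log2 CPM (exact permutation test, two-sided *p*=0.000198, adjusted over 12 pairs 0.00238) and a Spearman rho of 1 (exact *p*=0.000397, adjusted 0.00476). Without G11 and G13, the livers farthest from the median of *Saa1*, *r* was 0.988 over 5 livers. *Hmgcs1* and *Sqle*, both targets of the sterol-regulated factor SREBP2, had *r*=0.914 (exact permutation *p*=0.00873, adjusted 0.0524) and rho=0.821 (exact permutation *p*=0.0341, adjusted 0.137). That relation rested on G10 and G11, without which *r* was 0.345. *Saa1* and *Socs3*, both induced by interleukin 6, had *r*=0.695 and rho=0.821 (exact permutation *p*=0.0877 and 0.0341, adjusted 0.351 and 0.137). *Dbp* and *Nr1d1*, which share a phase of the clock, had *r*=−0.0362 and rho=−0.214 (exact permutation *p*=0.946 and 0.662, adjusted 0.946 and 0.794). The other 8 pairs had *r* between −0.245 and 0.645, with an adjusted exact permutation *p* of at least 0.368. Their rho was between −0.464 and 0.75, with an adjusted exact permutation *p* of at least 0.1988. With 7 livers a weak relation could not be detected, and a *p* above 0.05 does not show that 2 genes vary independently.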

How the data were processed

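Strand-specific poly(A) libraries of the right liver lobe were sequenced. The authors trimmed adapters, aligned to GRCm38 (HISAT2), retained reads with a unique position and deposited raw read counts for 55487 genes, without normalisation. The counting tool and HISAT2 version were not given in the sources used here. Of the genes above 1 CPM, 99.2% had the coordinates of GENCODE M21, and 98.6% of the deposited lengths were within 1% of the union of its exons, whereas the methods name a later Ensembl release.

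The 7 libraries of the water group were used; the 7 of the indole group were left out. Gene lists, pairs and members were chosen with earlier results of these data known. CPM and TMM factors (0.947 to 1.07) were computed with edgeR 4.0.16 in R 4.3.3, and BCV is the square root of its gene-wise dispersion in a fit with an intercept only, without shrinkage. The code was tested on simulated counts. A liver under 3 reads was set to that floor (0.143 to 0.206 CPM) in a range. Named genes were the 20 highest by CPM and 15 per kilobase, the 3 highest of each biotype, the 30 most and 10 least variable, the top member and members past 4-fold of each list, and the pairs. A few genes that this rule names are not reported here. Shared sequence was taken as identical windows of 100 bases, every 5 bases along the longest transcript of a gene, searched in all GENCODE M21 transcripts. Alternatives were RLE and no scaling, other limits, DESeq2 1.42.0 dispersions and leaving out each liver; a count without *Mup* genes was added after seeing the data. Samples are separate mice by their labels, with no batch given.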

Additional observations from a re-analysis of the deposited data

Results flagged for a closer look

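In 226 sets of 7 values (named genes, list sums, biotype shares and total reads) the gap between the most extreme liver and its neighbour was divided by the range of the 7, on the log2 scale for levels. In 15 sets it was above Dixon's 95% critical value for 7 samples. Chance flags about 1 in 20 sets, and among all genes with a mean of at least 5 CPM it was 4.45%.

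Liver G11 was set apart in 6 of them. *Mup12* was at 12.3 CPM in G11 against 428 to 1246 CPM in the other 6, and *Mup7* at 39.6 CPM in G11 against 435 to 1907 CPM in the other 6. *Irf7* was at 74.4 CPM in G11 against 10.3 to 16.7 CPM in the other 6, *Rtp4* at 16.6 CPM in G11 against 2.23 to 4.76 CPM in the other 6, and the summed interferon response genes at 1519.9 CPM in G11 against 789 to 1038 CPM in the other 6. *Tat* was at 1552 CPM in G11 against 779 to 939 CPM in the other 6.

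Liver G13 was set apart for *Per1* at 4.81 CPM in G13 against 17.4 to 34.3 CPM in the other 6, for *Hectd2os* at 87.04 CPM in G13 against 145 to 186 CPM in the other 6, and for the sum of glucocorticoid targets and metallothioneins at 1585 CPM in G13 against 2581 to 3582 CPM in the other 6. *Mup10* was at 1099 CPM in G10 against 2.16 to 5.39 CPM in the other 6. Liver G6 was highest for the ferritin light chain *Ftl1* at 3994 CPM in G6 against 3165 to 3483 CPM in the other 6, for the pseudogene *Rps2-ps10* at 502 CPM in G6 against 368 to 421 CPM in the other 6, and for the share of reads on transcribed processed pseudogenes at 0.132% in G6 against 0.107 to 0.115% in the other 6. Liver G9 was lowest for the antisense RNA *0610005C13Rik* at 131 CPM in G9 against 160.5 to 187 CPM in the other 6 and for the pseudogene *Ube2d-ps* at 9.33 CPM in G9 against 13.4 to 15.98 CPM in the other 6.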

How the results depend on the processing

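The count of 87 genes past 4-fold was 66 to 84 when 1 liver was left out, lowest without G11, 87 with RLE and 94 with raw totals. It was 383 with a minimum mean of 1 CPM, 50 with 20 CPM, 1627 without a minimum, 155 at 3-fold, 34 at 8-fold and 23 for the second highest over the second lowest liver, since these settings change which genes can pass. Without *Mup* genes it was 73. In all 7 counts with a liver left out, 30 of the 87 were past 4-fold. The median BCV of 10.6% was 10.1 to 10.9% with a liver left out, 11.1% with raw totals, 12.2% and 9.69% with minimum means of 1 and 20 CPM, 10.6% with DESeq2 and 11.7% from the SD of log2 CPM, which keeps counting error. The share of the 10 most abundant genes was 27.1% per kilobase. With raw totals, 2 pairs passed, *Hmgcs1* and *Sqle* being the second (adjusted exact permutation *p*=0.0345), and the other 131 of 132 recomputed relations kept their side of 0.05. Of 162 recomputed list counts, 146 were within 1.5 times the value given, and the others were small counts that lost members such as *Marco*, *Scd1*, *Hamp* or *Cyp7a1* without 1 liver, and 1 gain, pericentral genes having 2 past 4-fold with raw totals in place of 1. No paired analysis was possible because 1 group is described and no library number occurs more than once.

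Depth limits what can be said of genes under 5 CPM. With 7 mice of 1 strain and sex, a range rests on its extreme livers, and cell makeup, RNA integrity scores, times of collection and diabetes stage of the single mice were not analysed here. Single copies of gene families depend on unique mapping.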

Other observations

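The genes here were chosen after their values were seen. *Egfr*, the epidermal growth factor receptor of hepatocytes, was at 169 CPM in mouse G1, 128 in G4, 217 in G6, 241 in G9, 297 in G10, 188 in G11, and 668 in G13. Liver G13 lay above the others, and it was also the liver with the lowest *Errfi1*, the receptor's inhibitor, at 122 CPM. *Fgl1*, a secreted protein of the fibrinogen family, was at 131 CPM in mouse G1, 241 in G4, 204 in G6, 197 in G9, 364 in G10, 693 in G11, and 594 in G13, so that G11 and G13, the livers highest in *Saa1*, were highest. *Obp2a*, an odorant binding protein, was lowest in G11 (14.4 CPM) and highest in G9 (223 CPM), as *Mup16* was (52.4 and 1657 CPM).

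*Rsrp1*, an arginine- and serine-rich protein, was at 110.2 and 103 CPM in G4 and G1 and 22.01 to 42.1 CPM in the other 5. *Ptgds*, a prostaglandin D synthase, ranged from 2.78 CPM in mouse G11 to 21.5 CPM in mouse G9. MHC class II genes, with the invariant chain *Cd74* as the most abundant, summed to 105, 102.4 and 87.9 CPM in G1, G4 and G9 and to 34.1 to 59.4 CPM in the other 4, which is not the order of the interferon genes. Of the erythroid genes, which measure blood in the sample, *Hba-a1* ranged from 101 CPM in mouse G13 to 205 CPM in mouse G1.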
